A study of Mus musculus with 2 samples.

Results

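The genes described here are 9 genes whose proteins sit on, or connect the sperm nucleus with, the cytoskeleton of the developing spermatid: Sun1, Sun3, Sun5, Syne1, Hook1, Rimbp3, Spem1, Meig1 and Lrguk. They were taken by symbol from the 50686 genes of the count matrix, and all 9 were found. The data are counts of unique molecular identifiers (UMIs), each standing for 1 captured RNA molecule, in single cells of testis tissue. The tissue came from 2 wild-type mice of the strain C57Bl/6J Crl at 8 weeks of age. The authors digested a small part of the testis and filtered the cells to keep somatic cells few. Each mouse gave 1 droplet library, with 1237 cells and 27450497 UMIs in mouse 1 and 1315 cells and 30302332 UMIs in mouse 2. There was no second condition, so the comparisons are between stages of germ cell development within these 2 animals. The p-values weigh a difference between groups of cells against the spread of the 2 mice within groups. In the main fit, the groups of cells from 1 mouse are treated as independent.

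During spermiogenesis the round spermatid turns into a sperm cell with a compact, shaped head. The manchette is a transient skirt of microtubules that surrounds the nucleus of the elongating spermatid; it is known for moulding the head and for carrying cargo towards the growing tail. SUN proteins in the inner nuclear membrane bind nesprins in the outer one, and this bridge, called LINC, ties the nucleus to microtubules and actin outside it.

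K-means clustering without the 9 genes and without the other genes of their pathways gave 6 germ cell clusters with at least 20 cells in each mouse, numbered here by their median place in a diffusion pseudotime ordering, a computed path along which neighbouring cells resemble each other. Cluster 1 was early spermatocyte-like with 163 cells, cluster 2 was pachytene or later spermatocyte-like with 526 cells, and cluster 3 with 689 cells was left unnamed, because no marker list had more than 3 genes standing out in it (pachytene, 3 of 14), while its leading gene, Ssxb1, is on the round spermatid list. Cluster 4 was round spermatid-like with 448 cells, and clusters 5 and 6 were elongating or condensing spermatid-like with 193 and 514 cells. Cluster 5 also kept round spermatid markers. Of the 12 on that list, 6 were at least 1.5-fold above all cells in cluster 5, against 7 in cluster 4 and 0 in cluster 6. A further 19 cells fell into Sertoli-like, spermatogonium-like and Leydig-like clusters. Summed markers of other cells in the germ cell clusters reached 94.5 CPM (UMIs of a gene or list scaled to the same total in every sum of cells) for Sertoli cells in cluster 1, 111 CPM for red blood cells in cluster 2 and 88.4 CPM for red blood cells in cluster 6, against 25583 CPM for the Sertoli markers in Sertoli-like cells; their part in the results was not tested. No barcode was shared between the mice.

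All positions refer to GRCm38 with GENCODE gene models. Sun1 lies on chr5:139200637-139249840 (+), Sun3 on chr11:9016054-9048991 (-), Sun5 on chr2:153856188-153871084 (-) and Syne1 on chr10:5020917-5551482 (-). Hook1 lies on chr4:95967240-96025413 (+), Rimbp3 on chr16:17208603-17213982 (+), Spem1 on chr11:69820876-69822180 (-), Meig1 on chr2:3409043-3422648 (-) and Lrguk on chr6:34029448-34134034 (+). Syne1 is a giant gene of 530566 bases with up to 146 exons in a transcript, whereas Rimbp3 has 1 exon. Since the kit reads the 3′ ends of transcripts, the counts are per gene and do not separate isoforms. Sun1, Sun3 and Hook1 each overlap a gene on the opposite strand that had UMIs of its own (446 for 4930520M14Rik, 2938 for Gm11992 and 677 for 9530080O11Rik). The study's mapping summary keeps reads antisense to exons apart, but the strand setting of the counting itself is not given in the sources used here.

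The promoter sequences of 4 genes are shown because their levels moved furthest along the ordering and each has a single annotated start in RefSeq: Sun5 with the largest single step, Hook1 and Spem1, which rose together in the last clusters, and Lrguk, which moved opposite to them. The lines give, 5′ to 3′ on the gene's strand in GRCm38.p6 and credited to RefSeq, the bases before the start site that lie outside the GENCODE gene, and capitals mark matches to the motifs searched. They cover chr2:153871085-153871334 for Sun5, chr11:69822181-69822415 for Spem1, chr4:95967129-95967239 for Hook1 and chr6:34029198-34029447 for Lrguk.
Sun5: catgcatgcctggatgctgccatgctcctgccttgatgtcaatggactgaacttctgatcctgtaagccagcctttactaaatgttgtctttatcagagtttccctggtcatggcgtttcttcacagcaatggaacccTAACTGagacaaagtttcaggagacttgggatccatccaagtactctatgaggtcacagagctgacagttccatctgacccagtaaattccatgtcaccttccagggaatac
Spem1: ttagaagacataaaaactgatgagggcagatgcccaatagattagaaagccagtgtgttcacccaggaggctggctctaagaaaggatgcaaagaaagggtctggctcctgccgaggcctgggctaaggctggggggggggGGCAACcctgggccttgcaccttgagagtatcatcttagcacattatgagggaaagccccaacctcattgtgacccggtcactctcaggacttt
Hook1: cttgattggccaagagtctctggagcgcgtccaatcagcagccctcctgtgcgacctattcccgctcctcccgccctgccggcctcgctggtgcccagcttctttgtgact
Lrguk: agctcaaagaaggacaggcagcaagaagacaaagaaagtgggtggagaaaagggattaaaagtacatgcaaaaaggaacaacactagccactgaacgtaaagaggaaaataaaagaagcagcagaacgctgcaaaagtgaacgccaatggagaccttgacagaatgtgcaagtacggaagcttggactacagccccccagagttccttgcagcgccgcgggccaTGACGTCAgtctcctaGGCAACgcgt

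The motifs were searched on both strands from 250 bases before to 50 bases after each start, in 14 windows of 8 of the 9 genes. They were the cyclic AMP response element (CRE) TGACGTCA, its shorter core TGACGT, which lies inside it, the MYB site TAACNG or CAACNG, and the RFX core GTTGCC. Lrguk alone held the CRE, with its first base 26 bases before the start, and 1.79% of all 32851 RefSeq windows held it. The shorter core occurred in the same place in Lrguk and in 7.51% of all windows. The RFX core was found in Lrguk and Spem1, on the strand that reads GGCAAC, and in 12.5% of all windows. MYB letters occurred in 5 of the 8 genes, each counted over all its windows, and in 49.7% of all single windows. These shares have different units, since a gene with several windows has more places for a match. A match describes letters in the window and is not evidence of binding.

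Along the ordering the genes were highest at different places. Syne1 was highest in early spermatocyte-like cells, Rimbp3 in pachytene or later spermatocyte-like cells, Lrguk in the unnamed cluster 3, Sun1 and Sun5 in round spermatid-like cells, Sun3 in the first of the elongating clusters, and Hook1 and Spem1 in the last. Meig1 varied little between the germ cell clusters. All values below are CPM levels of UMIs summed per mouse and cluster unless a difference is named.

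**Figure D1:**
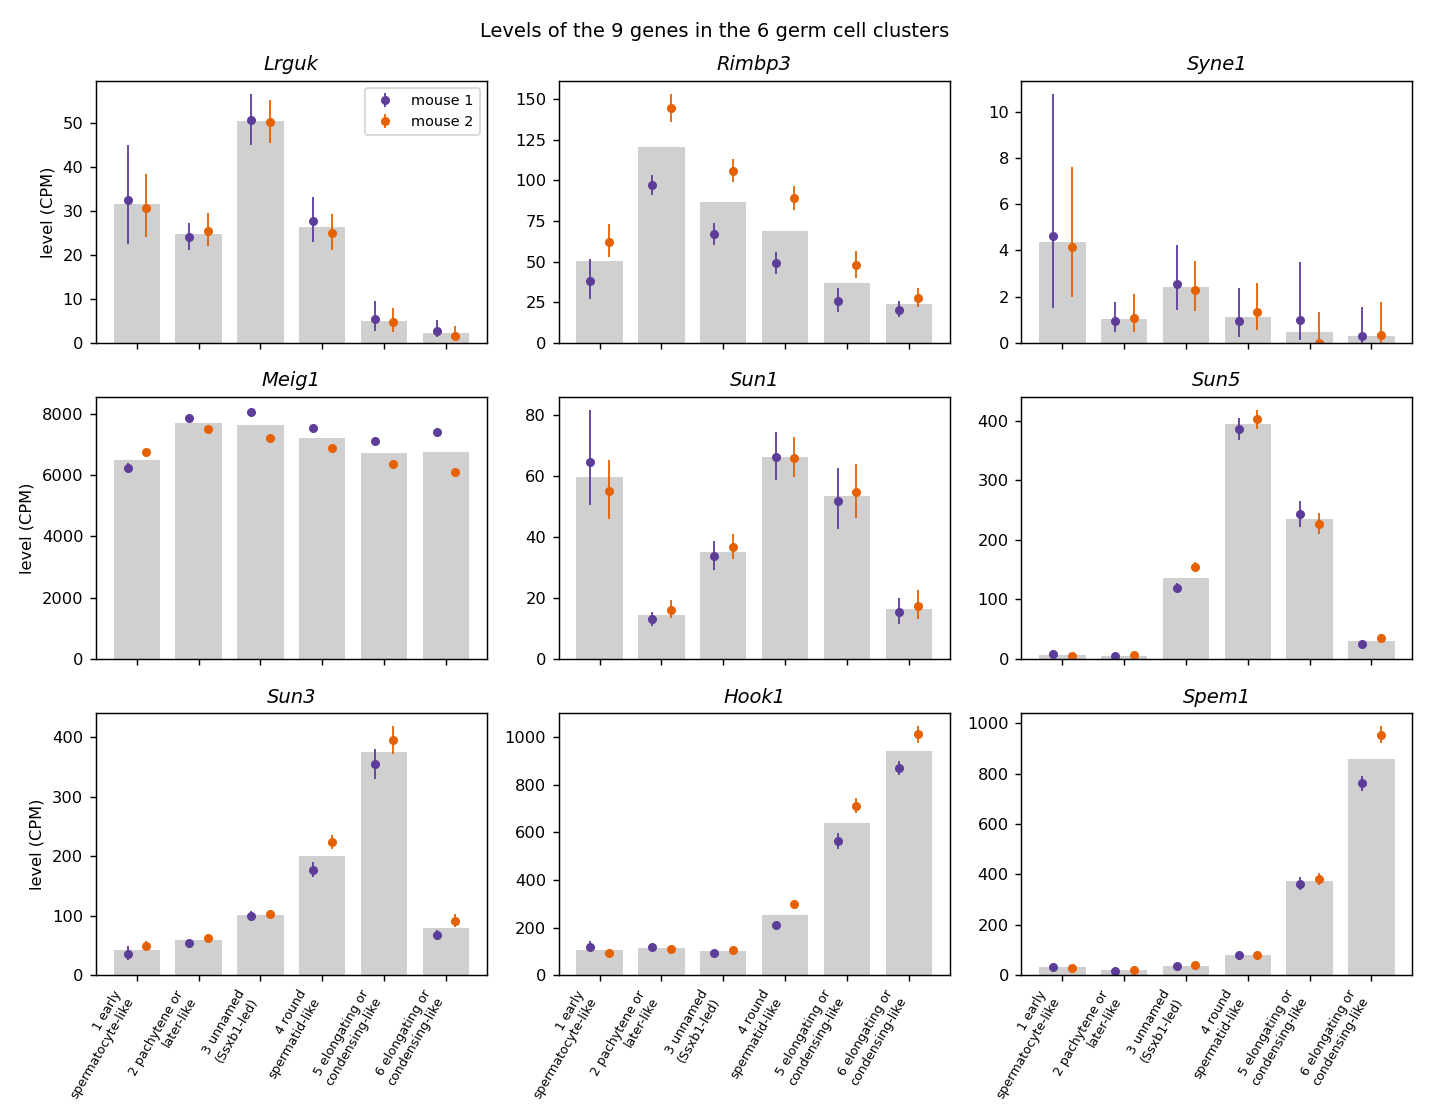
Level of each gene in CPM (vertical axes, linear and starting at 0) in the 6 germ cell clusters in order of the pseudotime; points are the 2 mice with exact 95% Poisson intervals for counting error, and grey bars are the mean of both mice. Lrguk and Rimbp3 fall towards the last clusters, Sun5 and Sun3 peak in clusters 4 and 5, Hook1 and Spem1 are highest in cluster 6, and Rimbp3 lies higher in mouse 2 in every cluster.

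Differences between consecutive clusters were tested with edgeR's quasi-likelihood test on the sums per mouse, with p-values adjusted by Benjamini and Hochberg across the 14132 genes that passed the filter, all 9 among them, and a call at an adjusted p under 0.05. From cluster 1 to 2 (step 1), 3 of the 9 genes rose and 2 fell, where 25.5% of all genes tested were called higher and 24.6% lower, together 50.2%. From cluster 2 to 3 (step 2), 6 rose and 0 fell, against 32.1% and 30% of all genes, together 62.1%. From cluster 3 to 4 (step 3), 5 rose and 1 fell, against 26.4% and 18.7%, together 45.1%. From cluster 4 to 5 (step 4), 3 rose and 1 fell, against 22.7% and 21.6%, together 44.4%. From cluster 5 to 6 (step 5), 3 rose and 3 fell, against 16.5% and 23.5%, together 40%. The median log2 fold change of the 9 genes was 0.019, 1.05, 1.19, 0.16 and -0.067 in steps 1 to 5, beside medians of 0, -0.015, -0.023, -0.11 and 0 over all genes.

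These folds depend on how the libraries are scaled. TMM scaling, which sets the bulk of genes to no change, added 0.26, 0.077, 0.28, 0.46 and 0.61 to the log2 CPM ratio of every gene in steps 1 to 5, so a gene with equal CPM in clusters 5 and 6 appears as higher in cluster 6. The 14 elongating spermatid markers together took 84988 CPM in cluster 5 and 205079 CPM in cluster 6. With total counts as the scale, the median of all genes shifted to -0.23, -0.09, -0.30, -0.57 and -0.60 in steps 1 to 5, and the share of higher among all calls went from 50.9% to 39.3% in step 1, from 58.4% to 40.3% in step 3, from 51.2% to 30.7% in step 4 and from 41.2% to 14.1% in step 5. Of the 27 calls on the 9 genes, 23 held with the same direction in all 10 settings that gave a test, and the other 4 are named beside their values. The clusters were built from the same cells, though without these genes, so the p-values do not test whether the clusters exist.

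**Figure D2:**
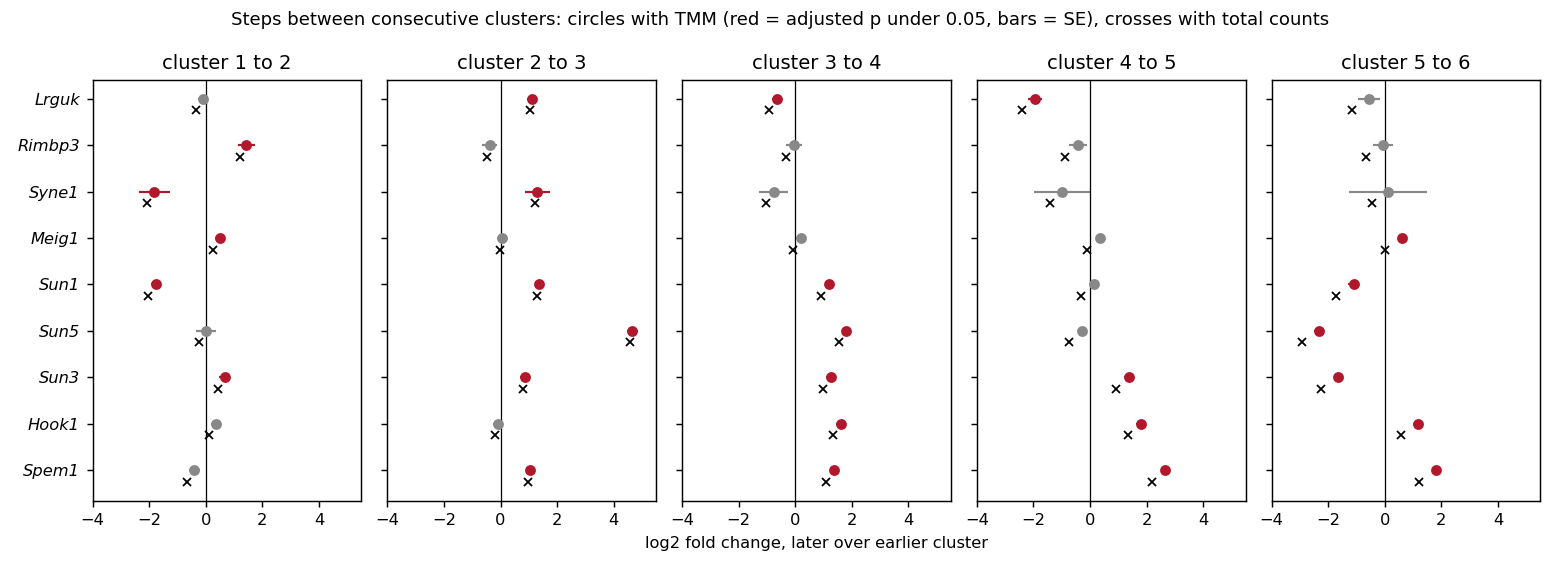
Difference of each gene between consecutive germ cell clusters, as log2 fold change of the later over the earlier cluster (horizontal axis); circles use TMM scaling with bars for the SE and red for an adjusted p under 0.05, and crosses use total counts. The crosses lie to the left of the circles in every step, by 0.077 in step 2 and up to 0.61 in step 5, and the large steps of Sun5, Sun3, Hook1, Spem1 and Lrguk keep their direction on both scales.

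Sun1 encodes the SUN protein that attaches telomeres to the nuclear envelope in meiotic prophase. Its level was 64.7 CPM in mouse 1 and 54.9 CPM in mouse 2 in early spermatocyte-like cells, 13.0 and 16.1 CPM in cluster 2, 33.7 and 36.7 CPM in cluster 3, 66.2 and 66.0 CPM in round spermatid-like cells, 51.9 and 54.7 CPM in cluster 5, and 15.3 and 17.5 CPM in cluster 6. It was therefore high at both the beginning of the ordering and in round spermatids, with a trough between them, and the values of the mice did not overlap between any neighbouring clusters. Sun1 fell by 1.77 on the log2 scale in step 1 (SE 0.17, adjusted p = 2.2e-08), rose by 1.36 (SE 0.16) in step 2 and by 1.19 (SE 0.15) in step 3, and fell by 1.10 (SE 0.18) in step 5. In step 4 its log2 fold change was 0.16 (adjusted p = 0.46) and its sign depended on the scale, with -0.31 on total counts. The means of clusters 1 and 4, 59.8 ± 6.9 and 66.1 ± 0.13 CPM (SD, n = 2 mice), lay close together, and in the ordering mouse 1 had its highest bin at the start and mouse 2 in the round spermatid range.

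Sun5 encodes the SUN protein of the site where the sperm tail joins the head. It was low before cluster 3, with 8.32 and 5.78 CPM in the 2 mice in cluster 1 and 4.60 and 6.98 CPM in cluster 2. It then reached 119 and 154 CPM in cluster 3, 385 and 402 CPM in round spermatid-like cells, 243 and 227 CPM in cluster 5, and 26.1 and 35.3 CPM in cluster 6. The mice did not overlap between any neighbouring clusters except 1 and 2. The rise in step 2 was 4.66 on the log2 scale (SE 0.20, adjusted p = 1.3e-14), the largest step of any of the 9 genes, followed by a rise of 1.81 (SE 0.16) in step 3 and a fall of 2.33 (SE 0.18, adjusted p = 1.3e-09) in step 5. In step 4 the log2 fold change was -0.29 (SE 0.16, adjusted p = 0.15). That difference was called lower with the mouse as a block (-0.29), with total counts (-0.75) and without the filter (-0.76), and was not called in the other settings tested. The upstream sequence of Sun5 shown above holds 1 MYB match, TAACTG, with its first base 112 bases before the start.

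Sun3 encodes a spermatid SUN protein that lies in the nuclear membrane next to the manchette and pairs with nesprin-1. Its level was 36.0 and 48.7 CPM in cluster 1, 54.8 and 63.5 CPM in cluster 2, 100.1 and 103 CPM in cluster 3, 177 and 223 CPM in cluster 4, 354 and 395 CPM in cluster 5, and 67.7 and 91.1 CPM in cluster 6. Both mice increased at each of the first 4 steps and dropped at the last, with no overlap between neighbouring clusters. Sun3 rose by 0.86 (SE 0.16) in step 2, 1.26 (SE 0.16) in step 3 and 1.37 (SE 0.16, adjusted p = 3.1e-07) in step 4 on the log2 scale, and fell by 1.64 (SE 0.17, adjusted p = 8.4e-08) in step 5. Step 1 was called as well, at 0.67 (SE 0.20, adjusted p = 0.0064), but that call was lost with DESeq2, with RLE size factors and with total counts, where the log2 fold change was between 0.40 and 0.43. Per cell, the mean number of Sun3 UMIs went from 9.51 in cluster 5 to 1.03 in cluster 6, whose cells also held fewer UMIs in all (median 11718 against 23995). No Sun3 UMI was found in the Sertoli-like, spermatogonium-like and Leydig-like clusters, which allows up to 35.4, 40.1 and 59.2 CPM by a floor of 3 counts per cluster.

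Syne1 encodes nesprin-1, the outer-membrane partner that SUN proteins hold. Only 87 UMIs were found in all 2552 cells, 41 in mouse 1 and 46 in mouse 2. The level was 4.62 and 4.13 CPM in early spermatocyte-like cells (15 UMIs), 0.96 and 1.07 CPM in cluster 2 (18 UMIs), 2.55 and 2.28 CPM in cluster 3 (34 UMIs), and 0.93 and 1.32 CPM in cluster 4 (12 UMIs). Clusters 5 and 6 had 2 UMIs each. Pooled over the mice, cluster 5 held 0.41 CPM with an exact 95% Poisson interval from 0.050 to 1.49, and cluster 6 held 0.30 CPM with an interval from 0.036 to 1.07. Both upper ends lay below the level of either mouse in cluster 1. Little more can be said at this depth, and which cells carry a manchette was not measured. Its fall of 1.81 in step 1 (SE 0.55, adjusted p = 0.0089) and rise of 1.30 in step 2 (SE 0.45, adjusted p = 0.016) were called, the latter not with DESeq2. Outside the germ line, 4 UMIs fell into the 7 Sertoli-like cells, all 4 in mouse 1, or 47.2 CPM with an interval from 12.9 to 121.

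Other genes of the nuclear envelope put these levels in context, and 9 of the 11 on the list could be tested. Spag4, which encodes another SUN protein of the spermatid, rose in steps 2, 3 and 4 and reached 721 and 701 CPM in cluster 5; its level stayed at 632 and 600 CPM in cluster 6, where Sun3 and Sun5 had dropped. Nesprin-2, encoded by Syne2, rose by 3.91 (SE 0.42) in step 1 to 36.8 and 30.3 CPM in cluster 2 and fell by 1.25 (SE 0.29) in step 3. Syne3, encoding nesprin-3, which binds the cytolinker plectin, rose by 4.98 (SE 0.54, adjusted p = 1.2e-07) in step 4, from 0.47 and 0.66 CPM to 9.22 and 17.5 CPM. The B-type lamin gene Lmnb2 rose by 3.49 (SE 0.20) in step 2 and by 2.05 (SE 0.17) in step 3, to 346 and 391 CPM in round spermatid-like cells, and fell by 2.30 (SE 0.19) in step 5, whereas Lbr, the lamin B receptor, fell by 2.46 in step 1 and by 2.18 in step 2 and then held at most 27 UMIs in any later cluster. Lbr was also called higher in step 5, by 2.32 (SE 0.80, adjusted p = 0.024), on 3 UMIs in cluster 5 and 14 in cluster 6. Dpy19l2, whose product anchors the acrosome to the nucleus, was highest in cluster 2 at 162 and 152 CPM. Of the 9 tested, 2 rose and 3 fell in step 1, 3 and 3 in step 2, 3 and 2 in step 3, 3 and 1 in step 4, and 1 and 3 in step 5. Over all genes tested, the shares called in either direction in these steps were 50.2%, 62.1%, 45.1%, 44.4% and 40%.

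**Figure D3:**
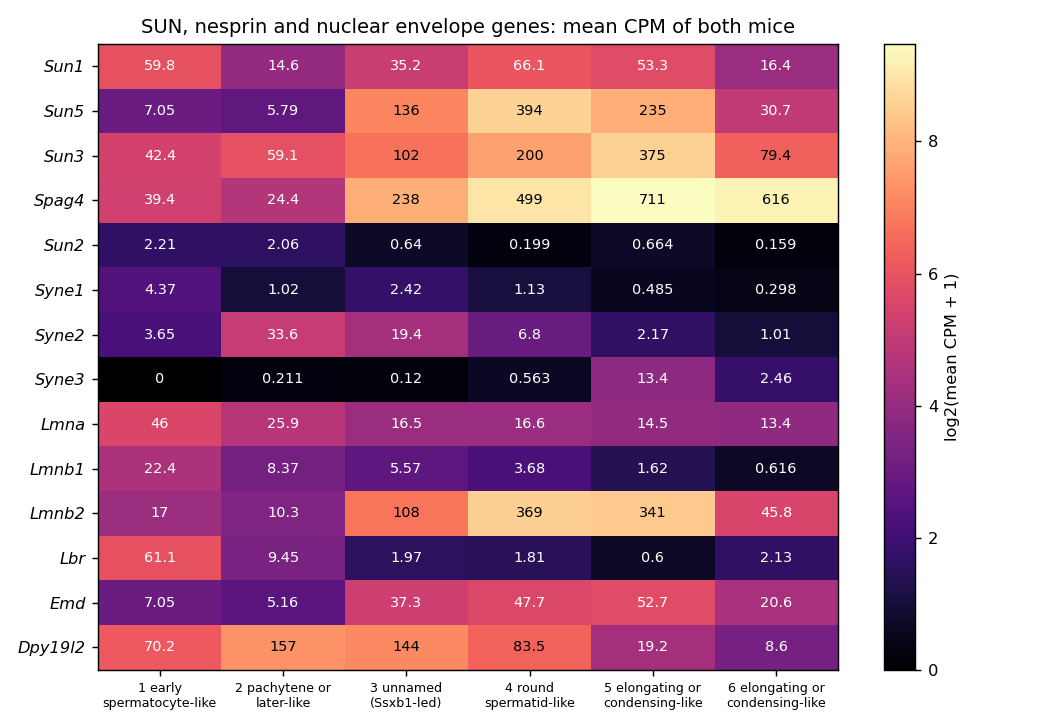
Mean CPM of both mice (numbers in the cells) for SUN, nesprin and other nuclear envelope genes, one per row, in the 6 germ cell clusters, one per column; colour is log2 of the mean CPM plus 1. Sun5, Sun3, Spag4 and Lmnb2 are bright in clusters 3 to 5, Spag4 remains bright in cluster 6, and no nesprin gene shown exceeds 33.6 CPM in any cluster.

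Hook1 encodes a microtubule-binding adaptor of the manchette and is the gene changed in the abnormal-head azh mouse. Its level was 120 and 95.4 CPM in cluster 1, 117 and 112 CPM in cluster 2, and 94.8 and 107 CPM in cluster 3, and cluster 1 overlapped both of the others, which did not overlap each other. It then climbed to 209 and 299 CPM in round spermatid-like cells, 563 and 712 CPM in cluster 5 and 869 and 1011 CPM in cluster 6. The rises were 1.61 (SE 0.17, adjusted p = 9.3e-08) in step 3, 1.79 (SE 0.17, adjusted p = 1.4e-08) in step 4 and 1.16 (SE 0.17, adjusted p = 8.0e-06) in step 5 on the log2 scale. In step 5 the value ranged from 0.56 with total counts to 1.399 over the settings tested. Counted per cell and not scaled to the total, Hook1 was highest in cluster 5, with a mean of 16.3 UMIs against 12.3 in cluster 6. Step 1 was not called (0.37, adjusted p = 0.11), but it was called higher with the mouse as a block (0.41), without the filter (0.59) and without doublets (0.54), and stood at 0.080 with DESeq2, 0.076 with RLE size factors and 0.11 with total counts.

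Spem1 encodes a spermatid protein known for its part in the removal of cytoplasm from the head and neck. Its level was 33.3 and 29.3 CPM in cluster 1, 17.3 and 22.3 CPM in cluster 2, 37.6 and 39.4 CPM in cluster 3, 81.6 and 81.5 CPM in cluster 4, 364 and 381 CPM in cluster 5 and 761 and 955 CPM in cluster 6. The mice did not overlap between any neighbouring clusters. Spem1 rose by 1.05 (SE 0.16) in step 2, 1.36 (SE 0.15) in step 3, 2.65 (SE 0.15, adjusted p = 3.5e-12) in step 4 and 1.81 (SE 0.14, adjusted p = 1.7e-09) in step 5. Step 1 was not called (-0.40, adjusted p = 0.096). It was called lower with DESeq2 (-0.67), with RLE size factors (-0.68) and with total counts (-0.65). Its level in clusters 1, 2 and 3 was 3.59%, 2.27% and 4.54% of that in cluster 6, while the 14 elongating spermatid markers had medians of 2.73%, 2.04% and 6.36% there. The markers ranged there from 2.12% to 10.7%, from 1.38% to 11.9% and from 2.65% to 54.5%. In each of these clusters the upper end was Odf1 alone. The next highest markers stood at 4.04% (Gapdhs), 3.12% (Gapdhs) and 18.9% (Gsg1). Spem1 lay between the lowest and the next highest marker in each of these clusters. These values alone cannot tell background from low expression there. In the Sertoli-like cells, which should lack the gene, Spem1 stood at 41.3 CPM in mouse 1 (3 UMIs in 6 cells) and at 327 CPM in the single cell of mouse 2 (4 UMIs). Whether RNA free in the droplets contributes to the Spem1 level before cluster 4, and so to the call in step 2, was not tested.

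Hook1 in clusters 1, 2 and 3 stood at 11.01%, 12.3% and 10.9% of its level in cluster 6, above the median of the elongating markers. The highest single marker in clusters 1 and 2 was Odf1, at 10.7% and 11.9%. Odf1 held only 112 CPM in cluster 6, and already 89.7% of that level in cluster 4. The next highest marker was Gapdhs, at 4.04% in cluster 1 and 3.12% in cluster 2. In cluster 3 several markers stood above Hook1, among them Gsg1 at 18.9%. In Sertoli-like cells it stood at 68.9 CPM in the 6 cells of mouse 1 and 164 CPM in the 1 cell of mouse 2, from 7 UMIs together. Pooled over the mice, Hook1 held 103 CPM in cluster 1 and 82.6 CPM in Sertoli-like cells. Spermatogonium-like cells held 93.7 CPM from 7 UMIs, and Leydig-like cells 19.7 CPM from 1 UMI. Before thinning, 84.05% of cluster 1 cells held a Hook1 UMI, at a median depth of 19596 UMIs, and 57.1% of the Sertoli-like cells, at a median depth of 12039. After thinning every cell to 5000 UMIs the shares were 49.7% and 28.6%. The Sertoli-like shares rest on 7 cells. Whether RNA free in the droplets contributes to the Hook1 level in clusters 1, 2 and 3 was not tested. For Spem1 the shares were 41.1% in cluster 1 and 42.9% in Sertoli-like cells before thinning, and 15.3% and 42.9% after it, where 42.9% is 3 of 7 cells. The share in cluster 1 was not above that in Sertoli-like cells and is not read as expression.

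Rimbp3 encodes a manchette protein that binds HOOK1. Its level was 37.9 and 62.4 CPM in cluster 1, 97.0 and 145 CPM in cluster 2, 66.9 and 106 CPM in cluster 3, 49.0 and 88.98 CPM in cluster 4, 25.7 and 47.9 CPM in cluster 5, and 20.3 and 27.4 CPM in cluster 6. Its highest cluster came before that of Hook1. Within each mouse the CPM level went down at every step from cluster 2 on. However, the ranges over both mice overlapped between all neighbouring clusters except 1 and 2 and 4 and 5. Rimbp3 rose by 1.44 (SE 0.31, adjusted p = 0.00047) in step 1, and no later step was called. Steps 2 and 4 stood at -0.39 (adjusted p = 0.21) and -0.42 (adjusted p = 0.30). Steps 3 and 5 stood at -0.040 (adjusted p = 0.93) and -0.067 (adjusted p = 0.92) with TMM, and at -0.32 and -0.67 with total counts, not called. Step 5 turned to 0.18 with DESeq2, 0.17 with RLE size factors and 0.086 without the filter. The fall in CPM at these steps therefore depends on the scale. With the mouse as a block, step 2 was called lower at -0.42 and step 4 lower at -0.43, and step 4 was also called lower with total counts (-0.89) and without the filter (-0.91).

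Meig1 encodes a small protein that brings SPAG16 and other cargo to the manchette. It was found in all 2552 cells, with 421368 UMIs in all. Its level was 6232 and 6747 CPM in cluster 1, 7868 and 7515 CPM in cluster 2, 8065 and 7226 CPM in cluster 3, 7543 and 6880 CPM in cluster 4, 7109.9 and 6363 CPM in cluster 5 and 7419.5 and 6118 CPM in cluster 6. Mouse ranges overlapped between all neighbouring clusters except 1 and 2. The rise of 0.50 in step 1 (SE 0.16, adjusted p = 0.013) was lost with DESeq2, RLE size factors and total counts, and the rise of 0.61 in step 5 (SE 0.16, adjusted p = 0.0042) became 0.0052 with total counts. Step 4 was not called (0.36, adjusted p = 0.077), but it was called higher with the mouse as a block (0.36), with DESeq2 (0.42), with RLE size factors (0.43), with another seed (0.41) and without repeat rows (0.42), while total counts gave -0.098 and no filter -0.11, neither of them called. Sertoli-like, spermatogonium-like and Leydig-like cells held 1156, 843 and 670 CPM, from 98, 63 and 34 UMIs. The elongating spermatid markers stood at medians of 5.28%, 2.92% and 3.36% of their cluster 6 level in the same clusters. Those markers were concentrated in clusters 5 and 6, whereas Meig1 varied little between germ cell clusters. Their percentages are therefore not a like measure for Meig1. The part of free RNA in these Meig1 levels was not tested.

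In the finer bins of the ordering, the CPM level of Meig1 ended lower than the cluster values show. The last of the 20 bins held 6482 CPM in mouse 1 and 4087 CPM in mouse 2, the bin before it 6711 and 6249.7 CPM, and the second bin 8061 and 8067 CPM. In both mice the last bin was below the one before it, and in mouse 2 it was the lowest of all bins.

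Lrguk encodes a protein with leucine-rich repeats and a guanylate kinase domain that is needed for the manchette, the acrosome and the tail. Its level was 32.3 and 30.6 CPM in cluster 1, 24.0 and 25.5 CPM in cluster 2, 50.5 and 50.05 CPM in cluster 3, 27.7 and 24.9 CPM in cluster 4, 5.34 and 4.64 CPM in cluster 5, and 2.77 and 1.59 CPM in cluster 6. The peak in cluster 3 was 50.3 ± 0.35 CPM (SD, n = 2 mice), and the mice overlapped between no neighbouring clusters. Lrguk rose by 1.10 (SE 0.15, adjusted p = 1.8e-06) in step 2, fell by 0.65 (SE 0.16, adjusted p = 0.0016) in step 3 and fell by 1.94 (SE 0.25, adjusted p = 1.3e-06) in step 4. Step 5 was not called (-0.55, adjusted p = 0.37), but it was called lower with total counts (-1.15). In the 2 elongating clusters together 39 UMIs were found. These are the clusters in which Hook1 and Spem1 were highest. The Lrguk promoter shown above carries the CRE at 26 and the RFX letters at 10 bases before the start.

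**Figure D4:**
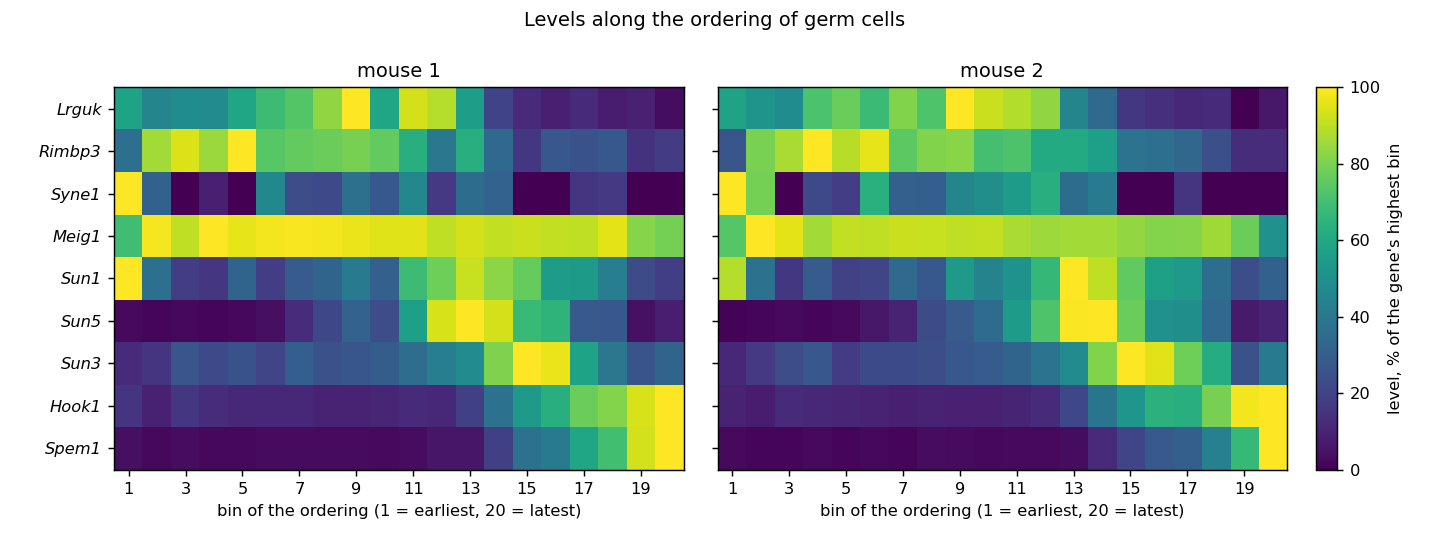
Level of each gene (rows) in 20 bins of equal cell number along the ordering of the germ cells (horizontal axis, bin 1 earliest), as a percentage of the gene's highest bin in that mouse, with mouse 1 on the left and mouse 2 on the right. Lrguk and Rimbp3 fill the early and middle bins, Sun5 peaks in bin 13 or 14, Sun3 in bin 15, and Hook1 and Spem1 in bin 20.

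The ordering placed the genes on a finer scale than the clusters, though not every highest bin stood clear of the others. Over both mice, Syne1 was highest in bin 1, Meig1 in bin 2, Rimbp3 in bin 5, Lrguk in bin 9, Sun1 and Sun5 in bin 13, Sun3 in bin 15, and Hook1 and Spem1 in bin 20. Some of these differ little from other bins. Pooled over the mice, Rimbp3 held 116 CPM in bin 5 and 114 CPM in bin 3. Sun1 held 70.9 CPM in bin 13 and 69.3 CPM in bin 1, and Lrguk held 50.4 CPM in bin 9 and 45.3 CPM in bin 11. The Poisson intervals of each pair overlapped. Bin 9 was 95.2% cells of cluster 3, bin 13 was 99.2% round spermatid-like cells and bin 20 was 96.0% cells of cluster 6. Bins 5 and 15 were mixed, with 60.6% cells of cluster 2 in bin 5 and 48.4% cells of cluster 5 in bin 15. The rest of bin 15 came from cluster 4 (40 cells) and cluster 6 (25 cells). Sun5 in bin 13 stood at 375 CPM in mouse 1 and 411 CPM in mouse 2, at which point Spem1 was at 57.5 and 47.6 CPM. In bin 15 Sun3 stood at 284 and 341 CPM, and Lrguk had dropped to 6.22 and 7.99 CPM from 51.2 and 49.8 CPM in bin 9. In bin 20 Spem1 reached 927 and 1388 CPM and Hook1 953 and 1115 CPM. Both mice had the same highest bin for Sun3, Syne1, Hook1, Spem1 and Lrguk, and differed for Sun1, Sun5, Rimbp3 and Meig1. For Syne1 this rests on 5 UMIs in mouse 1 and 6 in mouse 2 in bin 1. Its pooled Poisson interval there, from 2.35 to 8.42 CPM, overlapped those of bins 2 and 6, among others.

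Over the 40 points given by 20 bins in each of the mice, Pearson's r of log2(CPM + 10) between genes is a description, since the points share libraries, depth and the ordering. Hook1 and Spem1 were the most alike of the 9 genes with r = 0.98, and Lrguk ran against both with r = -0.95 for Hook1 and -0.93 for Spem1. Hook1 and Rimbp3, whose proteins bind each other, had r = -0.79 between their RNA levels, and protein was not measured. All r given here use total counts as the scale, and r with TMM was not computed. Sun3 and Sun5 had r = 0.79, and Sun1 and Sun3 had r = 0.46. The highest r of Meig1 with another of the 9 genes was 0.45, with Rimbp3.

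Outside the 9 genes, the closest patterns to Sun5 were those of Spaca4 (r = 0.99), Eqtn (r = 0.99) and Pdilt (r = 0.99). Spem1 was closest to Tppp2, Ppp2r2b and Prm2, the last encoding a protamine that packs sperm DNA, each with r over 0.99, and Hook1 to 1700020G17Rik, Wdr13 and Cabs1 (r = 0.99 each). Lrguk was closest to Lrriq1 (r = 0.97), Psmd9 (r = 0.97) and Dad1 (r = 0.97), and Rimbp3 to Chaf1a (r = 0.94), Eef2 (r = 0.94) and Ppp1cc (r = 0.94). Sun3 was closest to Ip6k1 (r = 0.95), Tnfaip2 (r = 0.95) and Akap10 (r = 0.95), and Sun1 to Bet1 (r = 0.91), Atad2 (r = 0.90) and Evi5 (r = 0.89). The lowest closest values were those of Meig1, with Prdx6b (r = 0.83), Hsbp1l1 (r = 0.83) and Cetn1 (r = 0.80). Syne1 had too few UMIs for this comparison.

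The wider list held 52 genes of the nuclear envelope, of partners and paralogs of the 9 genes, of microtubule severing and plus ends, and of transport along the manchette; 51 were in the matrix and 46 could be tested. In step 1, 19 of the 46 rose and 12 fell, in step 2, 13 rose and 14 fell, in step 3, 13 rose and 9 fell, in step 4, 10 rose and 16 fell, and in step 5, 9 rose and 17 fell. The shares of all genes were 25.5% higher and 24.6% lower in step 1, 32.1% and 30% in step 2, 26.4% and 18.7% in step 3, 22.7% and 21.6% in step 4, and 16.5% and 23.5% in step 5. The median log2 fold change of the list was 0.18, -0.058, 0.047, -0.37 and -0.35 in the 5 steps, beside 0, -0.015, -0.023, -0.11 and 0 over all genes. In step 1 the list had 14 higher and 18 lower calls with DESeq2, and 17 and 18 with RLE size factors. Over all genes tested, DESeq2 gave 2476 higher and 4131 lower there, and RLE size factors 2759 and 4516. In the other settings more of the list rose than fell in step 1. In step 5 both gave the list 11 higher and 13 lower, beside 2794 and 2447 (DESeq2) and 3095 and 2680 (RLE) over all genes. With total counts the list had 7 higher and 19 lower calls in step 3, 25 lower in step 4, and 2 higher and 26 lower in step 5. On that scale the calls over all 14132 genes tested also moved towards lower. They were 3087 higher and 4578 lower in step 3, 5514 lower in step 4, and 858 higher and 5219 lower in step 5.

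Among paralogs and partners, Hook2 moved apart from Hook1. It rose by 3.71 (SE 0.18, adjusted p = 8.4e-13) in step 1, from 18.5 and 20.6 CPM to 216 and 224 CPM, and stood at 15.5 and 18.5 CPM in cluster 6, where Hook1 was highest. Spag6 rose by 5.13 (SE 0.15, adjusted p = 6.4e-16) in step 2, from 20.1 and 19.99 CPM to 629 and 710 CPM, and fell by 1.83 (SE 0.13) in step 4. Of the 11 tested genes of this group, 8 rose and 1 fell in step 1, 2 and 4 in step 2, 2 and 1 in step 3, 0 and 5 in step 4, and 3 and 5 in step 5, to be read against the shares of all genes given for the whole list.

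Genes of microtubule ends and severing also differed in time. Clip1, encoding a plus-end binding protein, was at 456 and 432 CPM in round spermatid-like cells and 390 and 387 CPM in cluster 5, and fell by 2.67 (SE 0.15, adjusted p = 8.0e-12) in step 5 to 38.8 and 41.4 CPM. Map7, encoding a microtubule-stabilising protein, rose by 2.13 (SE 0.15) in step 3 and was highest in cluster 5 at 360 and 372 CPM. The plus-end protein gene Clasp1 rose by 4.02 (SE 0.25, adjusted p = 1.0e-11) in step 4, from 3.73 and 5.45 CPM to 48.5 and 61.4 CPM. Fsip2, which encodes a protein of the fibrous sheath of the tail, fell by 2.03 (SE 0.14) in step 4. The katanin-like gene Katnbl1 fell by 4.34 (SE 0.58) in step 1 on 31 UMIs in cluster 1 and 6 in cluster 2. In the transport group, Ift172, which encodes a subunit of the intraflagellar transport complex, reached 758 and 859 CPM in cluster 6 after a rise of 1.41 (SE 0.14) in step 5. The minus-end kinesin gene Kifc1 fell by 2.27 (SE 0.41) in step 3, and Myo5a, encoding a myosin motor, fell by 3.30 (SE 0.50) in step 1 and by 2.86 (SE 0.98) in step 2, with 13 UMIs left in cluster 2 and 1 in cluster 3.

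Between the 2 mice, Rimbp3 differed in one direction throughout. Its level was higher in mouse 2 in 6 of 6 clusters, by a ratio between 1.35 and 1.86. Among 5361 genes with at least 20 UMIs in each cluster, 0.895% were at least 1.2-fold higher in mouse 2 in all 6 clusters and 0.783% in mouse 1. Sun3 was also higher in mouse 2 in 6 of 6 clusters, with ratios between 1.03 and 1.35, a direction shared by 8.41% of these genes; 8.3% were higher in mouse 1 throughout. Syne1 and Lrguk had fewer than 20 UMIs in some clusters. Meig1 was higher in mouse 1 in 5 of 6 clusters. The fold and the minimum were chosen after the values had been seen, and with 1 mouse on each side no test can be made.

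**Figure D5:**
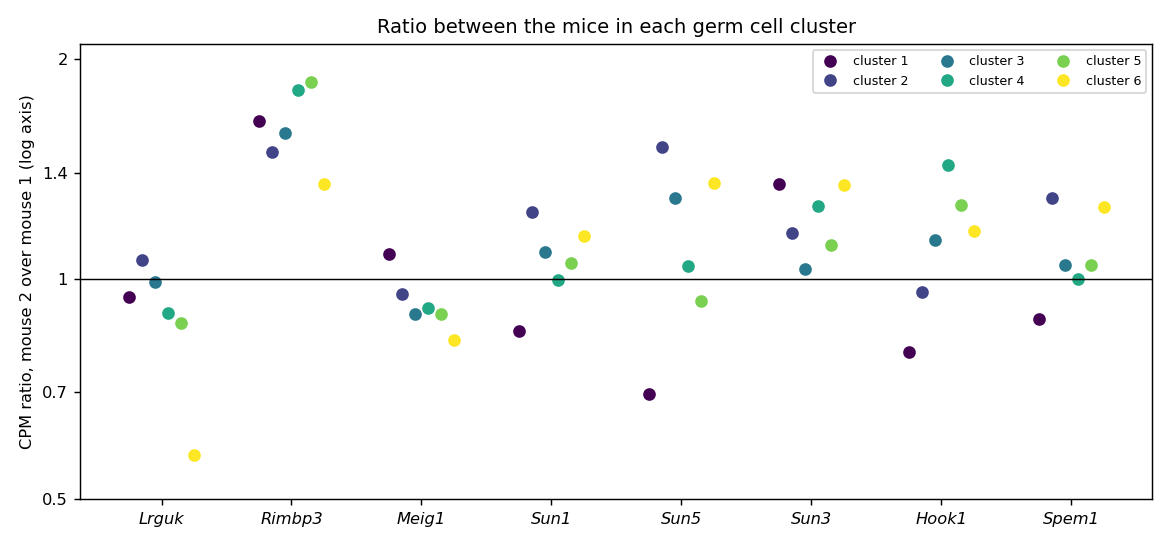
Ratio of the CPM level in mouse 2 over mouse 1 (vertical axis, log scale; the line marks equal levels) for 8 of the 9 genes, with 1 point per germ cell cluster; Syne1 is left out for its few UMIs. The 6 points of Rimbp3 lie between 1.35 and 1.86, while those of Sun1, Sun5, Hook1, Spem1, Meig1 and Lrguk fall on both sides of the line.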

How the data were processed

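The authors aligned and counted the reads with Cell Ranger 2.0.0 against repeat-masked GRCm38 with the Ensembl annotation and added repeat sequences, and combined both mice with downsampling of reads; the deposited values are whole UMI counts without normalization. Cells were assigned to mouse 1 or 2 by the digit at the end of their barcode, without a further key. All 2552 cells and 51868 rows were kept; scrublet called 25 doublets, left out in an alternative only. Other tables were not used here. Single values of 1 gene of the pathway list are not reported here.

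The 9 genes and all lists were chosen with earlier results of these data known. Clustering used K-means (K = 9, 10 restarts, seed 42) on 10 principal components of standardised log values of 27731 rows, without the 9 genes and the pathway list. A cluster took a name only where at least 3 of its markers were 1.5-fold above all cells and its leading genes did not go against it. Diffusion pseudotime (15 neighbours) started from an early spermatocyte-like cell and gave 20 bins. UMIs summed per mouse and cluster were tested with edgeR 4.0.16 (TMM, filterByExpr, quasi-likelihood) in 1 fit of 12 sums. The edgeR fit was also run on simulated sums drawn with the common spread of that fit and no mouse effect. The filter was not applied again, and only step 3 was read. Of 200 genes changed 4-fold, 190 were recovered, with 10 false calls among 14132 genes. DESeq2 recovered 175 on the same sums, with 1 false call. Apart from the changed genes, all simulated sums had the same mean composition, unlike the clusters. This therefore does not check the scaling between clusters, nor the effect of sums that share 1 animal. Of the list, the 2 largest and 2 smallest called folds per step are named, and a few more genes were chosen after their values were seen; likeness names the 3 highest correlations among genes with at least 500 UMIs. Sums of the same mouse come from 1 animal. Their deviations from the cluster means correlated between 0.027 and 0.22 (median 0.11, 15 pairs, 14132 genes), so the mouse as a block was an alternative. Other alternatives were DESeq2 1.42.0, RLE and total count scaling (the last chosen after the data were seen), no filter, other seeds, rows, components and neighbours, thinning, and each mouse alone. CPM carry exact 95% Poisson intervals, which cover counting error only. Python 3.11.15, scanpy 1.11.5 and R 4.3.3 were used.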

Additional observations from a re-analysis of the deposited data

How the results depend on the processing

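Leaving out either mouse leaves 1 sum per cluster, so only folds were given, without a test. With the mouse as a replicate block, 1 of the 9 genes was lower in step 2 (0 without the block) and 3 were lower in step 4 (1 without it). Over all 14132 genes tested, the block gave 4874 lower calls in step 2 (4240 without it) and 3402 in step 4 (3059 without it). The 5 calls it added on the 9 genes are given beside Sun5, Hook1, Rimbp3 and Meig1, and the block ended no call on them. The number of the 9 genes higher in step 1 was 1 with DESeq2, 1 with RLE size factors and 1 with total counts, against 3. Over all genes tested, the higher calls in step 1 were 2476 of 16990 with DESeq2. They were 2759 with RLE size factors and 2855 with total counts, each of 14132, against 3610 of 14132 with TMM. In step 4, 3 of the 9 genes were lower with total counts and 3 without the filter. Over all genes tested, 5514 of 14132 and 5365 of 27523 were lower there. Of the 46 tested genes of the pathway list, total counts gave 7 higher and 19 lower in step 3, 25 lower in step 4, and 2 higher and 26 lower in step 5. Over all 14132 genes they gave 3087 higher and 4578 lower, 5514 lower, and 858 higher and 5219 lower in the same steps.

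Differences that turned direction were not called with TMM. With total counts they were Meig1 in steps 2, 3 and 4 (-0.0084, -0.084 and -0.098), Sun1 in step 4 (-0.31), Sun5 in step 1 (-0.22) and Syne1 in step 5 (-0.45). Without the filter they were Lrguk in step 1 (0.13), Meig1 in step 4 (-0.11), Sun1 in step 4 (-0.32) and Rimbp3 in step 5 (0.086). DESeq2 and RLE size factors turned Rimbp3 in step 5 (0.18 and 0.17) and Sun5 in step 1 (-0.24 and -0.25), and another seed turned Sun5 in step 1 (-0.039). Without mouse 1, Hook1 turned in step 2 (0.062) and Rimbp3 in step 3 (0.012). Without mouse 2, Sun5 turned in step 1 (-0.47), Syne1 in steps 4 and 5 (0.47 and -1.05) and Rimbp3 in step 5 (0.29). Why these directions turned was not tested.

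Over all genes, total counts gave 4578 lower calls in step 3 (2648 with TMM), 5514 in step 4 (3059) and 5219 in step 5 (3322), with 858 higher in step 5 (2326). No filter gave 5365 lower calls in step 4. Higher calls made up 37.9% and 53.6% of calls with RLE size factors in steps 1 and 5, against 50.9% and 41.2% with TMM; with DESeq2 they made up 37.5% in step 1 and 53.3% in step 5, and without the filter 32.7% in step 4, against 51.2%. RLE size factors moved the median of all genes to -0.26 in step 1 and to 0.19 in step 5, and DESeq2 to -0.25 in step 1.

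The highest cluster became 1 for Sun1 and 3 for Meig1 with each cell weighted equally, and 5 for Hook1 by UMIs per cell; with either mouse alone it was 2 or 3 for Meig1. The highest bin became 14 for Sun5 and 7 for Syne1 with 30 neighbours, and 3 for Rimbp3, 3 for Meig1 and 11 for Lrguk with 30 components. With either mouse alone it was 1 or 13 for Sun1, 13 or 14 for Sun5, 4 or 5 for Rimbp3 and 2 or 4 for Meig1.

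The share of all cells with a UMI, and that share after thinning to 5000 UMIs, was 47.4% and 15.99% for Sun1, 79.7% and 40.6% for Sun3, 56.0% and 35.0% for Sun5, 3.29% and 0.90% for Syne1, 91.1% and 62.8% for Hook1, 64.4% and 28.0% for Rimbp3, 65.8% and 39.3% for Spem1, 100% and 99.96% for Meig1, and 40.3% and 12.8% for Lrguk. Syne1, with 87 UMIs, and the 19 cells outside the germ cell clusters rest on few counts.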
